A study of Sparus aurata with 16 samples.

Results

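A set of 500 transcript sequences of gilthead sea bream (Sparus aurata) had a higher signal in the white skeletal muscle of starved fish than of fed fish, while their liver signal differed little. The set was chosen by measured values out of the 25225 sequences on a custom two-colour oligonucleotide array. The rule used the scanner software's processed signal, as the mean log2 value of all spots of a sequence in each fish. It asked for a starved minus fed difference of at least 2 in muscle with all 4 starved fish above all 12 fed fish, a difference within 0.5 in liver, and a spot well above background in the muscle of all 4 starved fish. The differences between starved and fed fish in both tissues are therefore given as a description, with no test. Juvenile fish were starved for 23 days, or were fed once a day for the same time at 25 g/kg body weight with diet LLH, MHL or HLL. LLH was the diet high in carbohydrates and low in protein and lipids, HLL was high in protein and low in the other macronutrients, and MHL was high in lipids with a medium protein and a low carbohydrate content. Total RNA of the muscle and the liver of 4 fish per group was hybridised on 16 arrays, 8 per tissue, each array carrying 1 fish labelled with Cy5 and 1 fish of another group labelled with Cy3. The arrays paired starved fish with LLH or HLL, and MHL with LLH or HLL, never starved fish with MHL. In liver, 1 fish carries conflicting diet labels (HLL in 1 field, LLH in another). It was treated as an HLL fish, because every group then holds 4 fish.

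Fish endure long periods without food, and the liver and the white muscle take different parts in this. The liver stores glycogen and lipids and releases glucose, whereas white muscle, the fast glycolytic tissue that makes up most of the fillet, is the main protein store of the body. In starved vertebrates, amino acids are released from muscle protein through the ubiquitin-proteasome system and autophagy, and protein synthesis and growth signals decline. The sequences of the array come from a de novo assembly of pyrosequencing reads of both tissues. They carry assembly identifiers, and none of the 500 members is paired with a gene name in the sources used here. The members are therefore described by identifier, level and pattern, and no pathway or marker list could be counted among them. Of the members, 408 (81.6%) were isotigs, the assembler's putative transcripts, 90 (18%) had the name of a single read (identifiers that start with IFXJFUR) and 2 (0.4%) were contigs. Over the whole array, isotigs made up 77.3% and single reads 22.4%. In 472 members the signal rested on 2 probes, and in 28 on 1 probe.

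The share of spots well above background was 56.0 to 65.3% in the muscle samples and 57.9 to 66.6% in the liver samples, with no saturated spot. The tissue labels could be set against the liver-type and the muscle-type pyruvate kinase, which the array names by symbol. In fed fish, the liver-type enzyme (PKL) averaged 7.14 ± 0.20 on the log2 scale in muscle and 10.22 ± 0.29 in liver (SD, n = 12 fish each). The muscle-type enzyme (PKM) was dim in both tissues, at 6.49 ± 0.05 in muscle and 6.32 ± 0.08 in liver. Each tissue had 1 slide of its own, and in these levels a slide cannot be told apart from its tissue.

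The rule was applied step by step. In muscle, 1025 sequences reached a difference of 2, and in 864 of these every starved fish also lay above every fed fish. Over all sequences, 11.5% had all 4 starved above all 12 fed, and since the rule asked for this pattern, nothing is read from its presence in the members. Of the 854 sequences past the muscle conditions that were also well above background in starved muscle, 500 (58.5%) stayed within the liver limit, 263 (30.8%) were at least 0.5 higher in the liver of starved fish and 91 at least 0.5 lower. The members just inside the muscle limit were isotig09336 and isotig16028, with differences of 2.004 and 2.006, and the sequences just outside it were isotig01937 and isotig15251, with 1.999 and 1.997. At the liver limit, isotig06868 and isotig05285 lay just inside with 0.4995 and 0.4988, and isotig08295 and isotig02674 just outside with 0.5024 and 0.5055.

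The processed signals were not scaled between arrays, and all 4 starved muscle fish sat on brighter arrays. The median log2 processed signal over all sequences was between 5.85 and 6.36 in the starved muscle channels. It was between 5.76 and 6.40 in the fed channels of the same 4 arrays, against 5.23 to 5.65 in the 8 fed channels of the other 4 arrays. By the measure of the rule, the median sequence of the whole array was thus 0.52 higher in the muscle of starved fish and 0.24 higher in their liver, and the members had medians of 2.46 in muscle and 0.11 in liver. All values that follow are log2 intensities after normalisation within and between the arrays of a tissue, on which the median of all sequences was -0.0005 in muscle and -0.0033 in liver. On this scale the median member was 1.5 higher in the muscle of starved fish, which is 2.83-fold, with an interquartile range of 1.13 to 1.89, or 2.19-fold to 3.70-fold. Starved and fed muscle did not overlap in 471 of the 500 members, a pattern that the rule had asked for on processed signals and that 9.69% of all sequences showed on normalised intensities. Within the 4 arrays that held a starved fish, where both fish share the array, the starved fish had the higher value on all 4 arrays in 497 members, as it had in 18.3% of all sequences, and the median of the mean difference over the members was 1.499. Since the rule used the same fish, this count too was largely fixed by the choice of the members. In bulk tissue, more cells of a type and more RNA per cell cannot be told apart.

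The increase varied widely among the members. It was at least 4 (16-fold) in 7 members, between 3 and 4 in 11, between 2 and 3 in 81 and between 1 and 2 in 300, and it stayed under 1 in 101 members. Of the 1032 sequences of the array with a difference of at least 1, 399 were members, and of the 27 with a difference of at least 3, 18 were members. The smallest values belonged to dim sequences: of the 40 members with a difference under 0.5, 37 had a mean under 7 in starved muscle. An offset of 50 is added to each intensity before the log is taken, so that differences of dim spots are compressed.

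The largest differences belonged to 5 isotigs with neighbouring numbers, isotig01019 and isotig01021 to isotig01024, with fitted differences between 6.70 and 6.79, or 104-fold to 110-fold. In muscle, isotig01019 reached 15.87, 16.32, 15.78 and 15.65 in the 4 starved fish. The LLH fish had 8.42, 7.98, 11.08 and 9.52, the MHL fish 8.49, 9.72, 7.03 and 8.92, and the HLL fish 7.46, 9.20, 9.56 and 9.83. Starved fish were close to each other and far above every fed fish, while the fed fish spread widely and the 3 diets overlapped. The starved fish averaged 15.90 ± 0.29 (SD, n = 4) and the fed fish 8.93 ± 1.13 (SD, n = 12), and the fitted difference was 6.79 with a standard error of 0.56. Fed fish on an array with a starved fish had 9.52 to 11.08, and those on the other arrays 7.03 to 9.72, and the part of the shared array in these levels was not tested. In liver, isotig01019 lay between 6.01 and 6.17 in starved fish and between 6.0 and 6.21 in fed fish, and it was well above background in only 2 of 16 livers.

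The other isotigs of this block repeated the values of isotig01019 nearly exactly. In no fish did the 5 differ by more than 0.43, and over the 12 fed muscle fish the lowest correlation between any pair was 0.995. Their probes may bind the same transcript or close variants of it, so they were not counted as independent observations. The missing number of the block, isotig01020, showed the same muscle values (15.64 in starved fish, 8.79 in fed fish) but had a processed-signal difference of 0.55 in liver, at an intensity near background, and fell outside the liver limit. The neighbouring isotig01018 and isotig01025 had muscle differences of 0.22 and -0.13.

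The 5 remaining members among the 10 with the largest differences were separate identifiers with 10.3-fold to 20.5-fold increases. The sequence isotig07217 had 13.40, 13.92, 13.73 and 13.18 in starved muscle and 8.37 to 9.88 in the 12 fed fish, a difference of 4.35 ± 0.28 (SE), and it stayed near 6.2 in every liver. In contrast, isotig05977 was bright in the liver as well. Its muscle values were 15.81, 15.78, 15.61 and 15.59 in starved fish and 10.88 to 12.69 in fed fish, a difference of 4.22 ± 0.26 (SE), whereas in liver it averaged 12.04 ± 0.39 in starved fish (SD, n = 4) and 12.72 ± 0.28 in fed fish (SD, n = 12). The liver difference of isotig05977 was thus -0.69 after normalisation, beyond the 0.5 that the rule allowed on processed signals.

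The sequence isotig06121 followed with 14.94, 15.43, 15.71 and 15.53 in starved muscle and 10.22 to 13.44 in fed muscle, a difference of 3.99 ± 0.30 (SE). Its liver values stayed between 7.59 and 8.31 in all groups. For isotig02315 the starved muscle fish had 11.87, 12.28, 12.33 and 12.53 and the fed fish 7.81 to 9.47, a difference of 3.48 ± 0.25 (SE), with a liver mean of 10.65 in starved fish and 10.81 in fed fish. Among the 10 members with the largest differences, the SD among starved fish was highest for isotig06299 (0.72), with 11.64, 11.96, 10.95 and 10.36 against 7.47 to 8.27 in fed fish, a difference of 3.36 ± 0.20 (SE). None of these starved muscle groups overlapped with the fed fish, a pattern that the rule had asked for on processed signals. On normalised intensities, 9.69% of all sequences showed it.

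**Figure D1:**
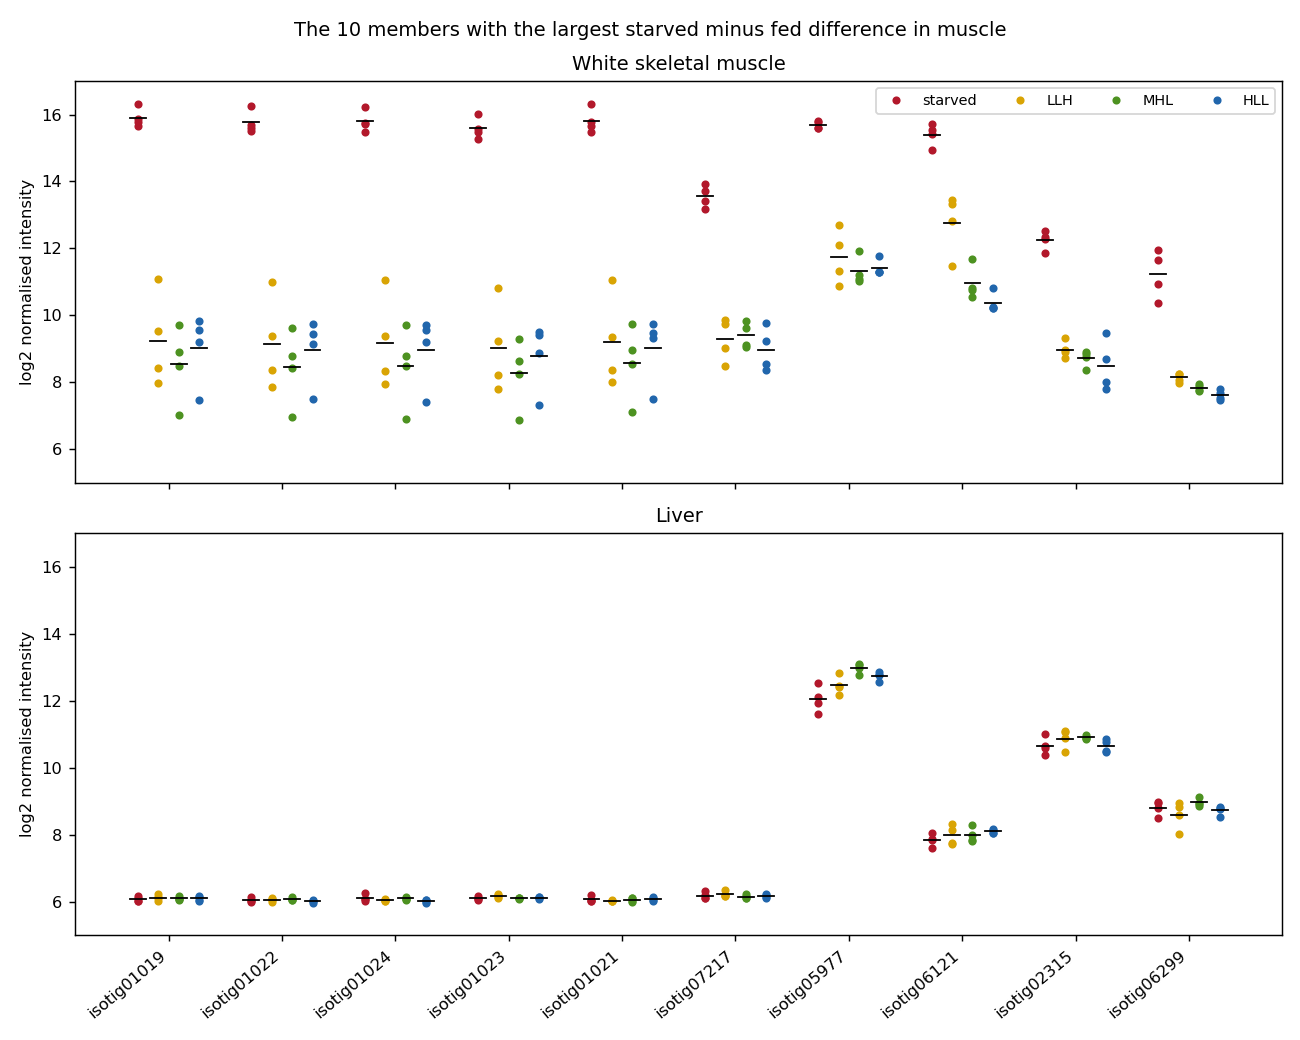
Log2 normalised intensity (vertical axes) of the 10 members with the largest difference in muscle (horizontal axis), in muscle (top) and liver (bottom); each point is a fish, black bars are means of 4 fish, and groups run from starved to LLH, MHL and HLL. Starved muscle lies above all fed muscle for each of the 10, as the rule asked on processed signals. For isotig01019 the values are 15.65 to 16.32 against 7.03 to 11.08. In liver, 6 of the 10 lie near 6 in every group.

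The neighbouring isotigs were not limited to the leading block. Of the 408 member isotigs, 105 had a neighbour in number that was also a member, and these formed 46 runs of consecutive numbers, which leaves 349 isotigs when each run is counted once. The difference in muscle varied by no more than 0.25 within 39 of the 46 runs, with a median range of 0.05. As examples, isotig00965 to isotig00968 had differences of 2.40 to 2.60 and isotig02106 to isotig02109 differences of 1.59 to 1.64. The widest run was isotig13173 and isotig13174, with differences between 1.19 and 3.11. Whether the isotigs of a run come from 1 transcript could not be checked here, so 500 is a count of identifiers and not of transcripts.

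Members with 2 probes showed how far a difference rested on a single oligonucleotide. The median gap between the probes was 0.11, and 90% of the pairs were within 0.48. Both probes reached a difference of 1 in 351 of the 472 members with 2 probes, and both reached 2 in 90. At the other end, IFXJFUR02GU4LJ had a difference of 3.18 on 1 probe and -0.01 on the other, and 5 members had a probe at or below 0. For these, only 1 of the probes carried the higher signal in starved fish.

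The members fell into classes by their liver signal, which the limit on the liver difference did not fix. A spot was well above background in all 16 livers for 365 members (73.0%), in some livers for 74 (14.8%) and in no liver for 61 (12.2%). Among the 16015 sequences well above background in all 4 starved muscle fish, these shares were 82.3%, 13.5% and 4.23%. For the members detected in no liver, the liver values were at background. Their means over the starved livers and over all fed livers lay between 5.85 and 6.12. A difference between starved and fed livers could not be measured there. A sequence at background in liver passes the liver limit more easily, and the part of this in the shares was not tested.

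Members detected in all 16 livers had a median muscle difference of 1.55, with a median level of 10.88 in starved muscle and 9.16 in fed muscle. Those detected in no liver had a median muscle difference of 1.44, with 9.59 in starved muscle and 7.91 in fed muscle. The 74 members detected in some livers were dimmer in muscle, with a median difference of 0.95. The brightest member in starved muscle was isotig06284, which was well above background in 1 liver and was named after its values were seen. It averaged 17.08 ± 0.38 in starved muscle (SD, n = 4) and 15.27 ± 0.79 in fed muscle (SD, n = 12), and 6.12 and 6.13 in the livers of starved and fed fish. The lowest liver level among the members was that of isotig16835 (mean 5.89 over 16 livers), which was dim in muscle too, with 6.46, 6.75, 6.45 and 6.55 in starved fish and 6.18 to 6.43 in fed fish.

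A smaller number of members were brighter in liver than in muscle. The liver mean exceeded the fed muscle mean in 174 members and exceeded the starved muscle mean in 38. The tissues lay on separate slides and were normalised separately, so in these levels a slide cannot be told apart from its tissue. The same counts were not taken over all sequences. The highest liver level was that of isotig09622, with a mean of 14.24 ± 0.35 in the livers of starved fish (SD, n = 4) and 14.82 ± 0.15 in those of fed fish (SD, n = 12). In muscle isotig09622 had 12.30, 11.38, 12.11 and 12.004 in starved fish, 10.26 to 10.86 in LLH, 9.53 to 11.46 in MHL and 9.36 to 9.78 in HLL, so that 1 starved fish overlapped with the fed fish. Likewise isotig18392 and isotig15551, named after their values were seen, averaged 14.03 and 12.58 in liver. In muscle, isotig18392 averaged 8.80 ± 0.21 in starved and 7.70 ± 0.34 in fed fish, and isotig15551 averaged 9.97 ± 1.35 in starved and 7.13 ± 0.32 in fed fish (SD, n = 4 and 12).

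**Figure D2:**
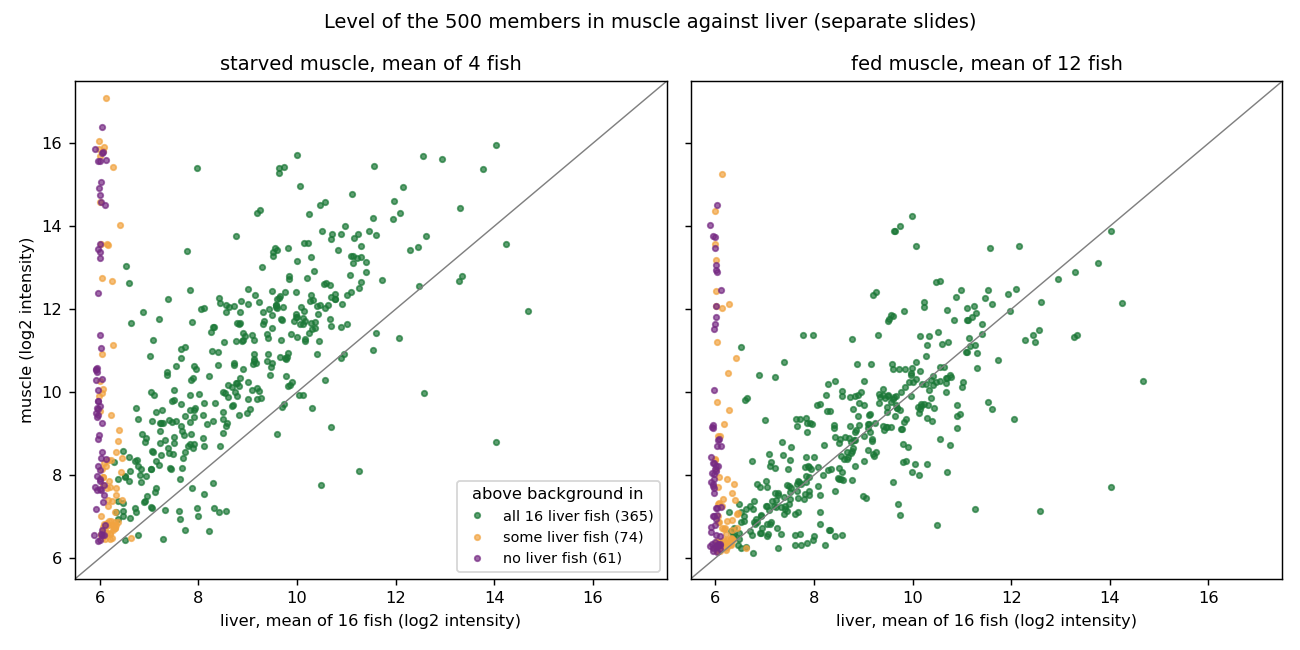
Mean log2 intensity of each of the 500 members in starved muscle (left, 4 fish) and in fed muscle (right, 12 fish) on the vertical axis, against its mean over 16 livers on the horizontal axis; colours give the livers in which a spot was well above background, and the grey line marks equal values. The 61 members detected in no liver form a column near 6 that reaches from dim to bright in muscle, and 38 members lie below the line in starved muscle against 174 in fed muscle. Muscle and liver lay on separate slides and were normalised separately.

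In fed muscle, 437 members (87.4%) were well above background in all 12 fish, 57 (11.4%) in some fish and 6 (1.2%) in none. Among the 16015 sequences well above background in all 4 starved muscle fish, these shares were 91.7%, 8.15% and 0.125%. The rule asked for lower values in fed muscle, and its part in the shares was not tested. The 6 members detected in no fed fish (isotig07894, IFXJFUR02JONYP, isotig04879, isotig10764, isotig09089 and isotig14652) were dim in starved muscle too, with means between 6.41 and 6.57. Their fed level is only a bound, taken per fish as the higher of the member's own value and the lowest normalised value among probes well above background in that channel. Set against this bound, they were at least 1.17-fold to at least 1.31-fold higher in starved fish. Most members thus had a measured level in fed muscle as well. Among the bright ones, the 143 with a mean of 12 or more in starved muscle, 60 had a difference of at least 2.

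After normalisation, the liver values of the members were slightly lower in starved fish. The median difference was -0.08, and 383 members (76.6%) had a negative sign, compared with 51.5% of all sequences. Among the 365 members detected in all livers, 80.5% were negative, compared with 49.9% of the 15007 sequences of the array detected in all livers. The 4 livers of starved fish had medians over the members between -0.11 and -0.09, and the 12 fed livers between -0.04 and 0.02. A liver difference of -0.5 or lower was found in 37 members and one above 0.5 in none. The rule set its liver limits on processed signals, on which the median of all sequences was 0.24 higher in starved fish, so its window was not centred on the normalised 0 and the shift is not read as a liver response.

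**Figure D3:**
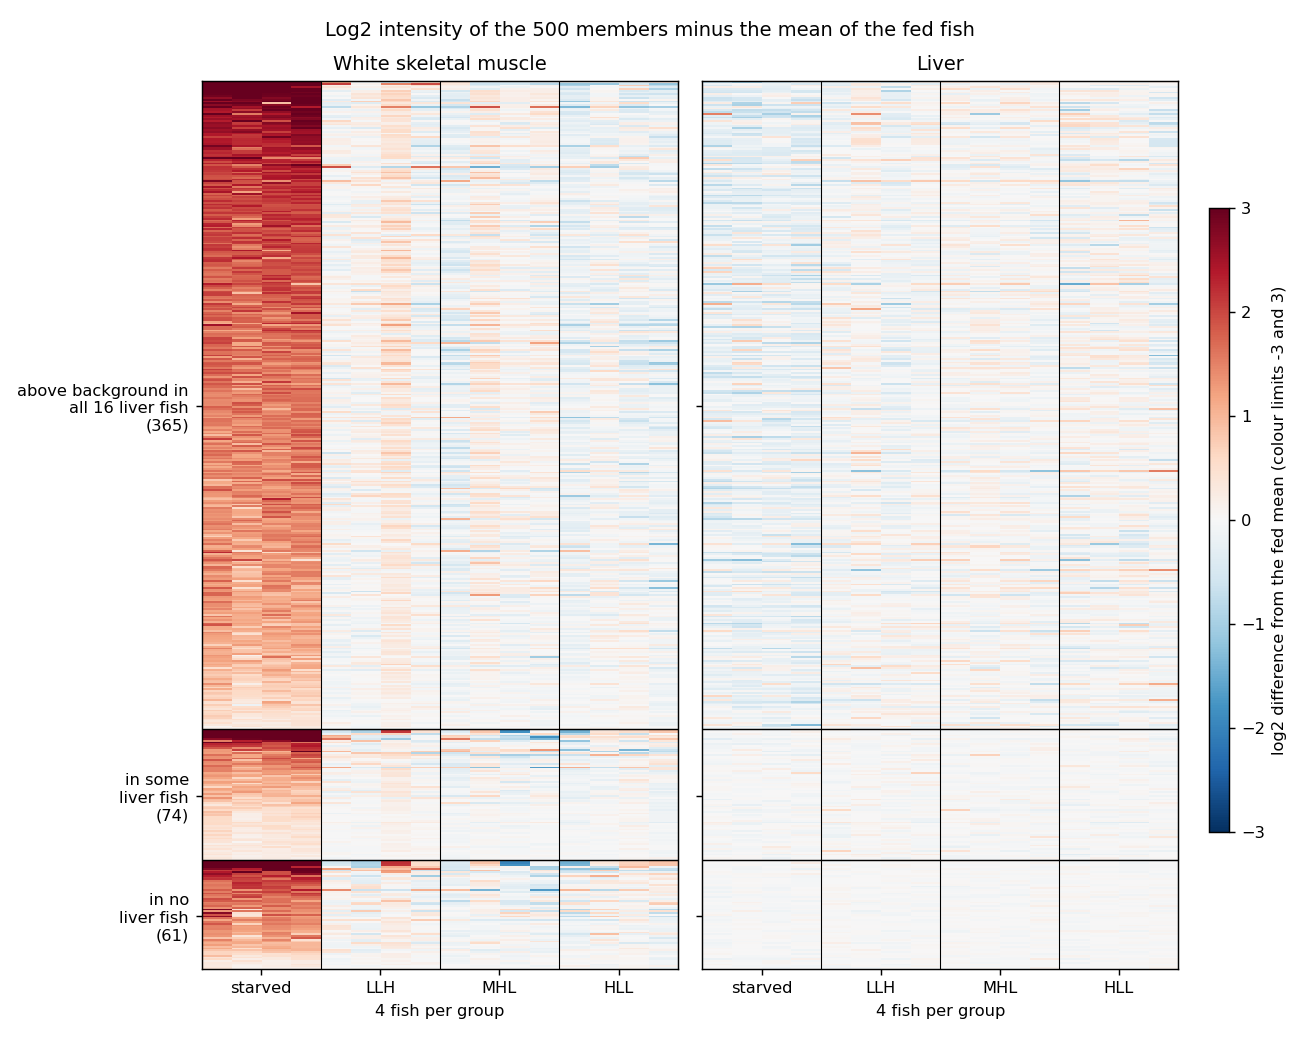
Log2 intensity minus the mean of the 12 fed fish of the same tissue, for the 500 members (rows, grouped by the livers in which they were above background and sorted by the muscle difference) and 4 fish per group (columns). The starved muscle columns run from red to pale red within each class, and the liver block of starved fish is faintly blue in the 365 members detected in all livers and near white below them.

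The 4 starved fish had similar medians over the members, which the rule favoured by asking for all 4 above every fed fish. The median over the members of the difference from the fed mean was 1.52, 1.38, 1.49 and 1.56 in starved fish 1 to 4, and starved fish 2 had the lowest value of the group in 209 members and starved fish 4 the highest in 171. The median SD among starved fish was 0.22 over the members and 0.11 over all sequences, and within the diets it was 0.23 over the members and 0.11 over all sequences. Members were brighter than the array as a whole, with a median of 8.66 in fed muscle compared with 6.89 for all sequences, and the part of brightness in the spread was not tested. On the array of starved fish 2 and LLH fish 3, the median within-array difference was 1.03, against 1.57 to 1.69 on the other 3 arrays. Among the fed fish, LLH fish 3 had the highest median over the members (0.27) and was the highest fed fish in 244 of 500 members, followed by MHL fish 2 (0.12, and 70 members). Counts of the highest or lowest fish were not taken over all sequences, so nothing is read from them. The other 10 fed fish had medians between -0.13 and 0.02.

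**Figure D4:**
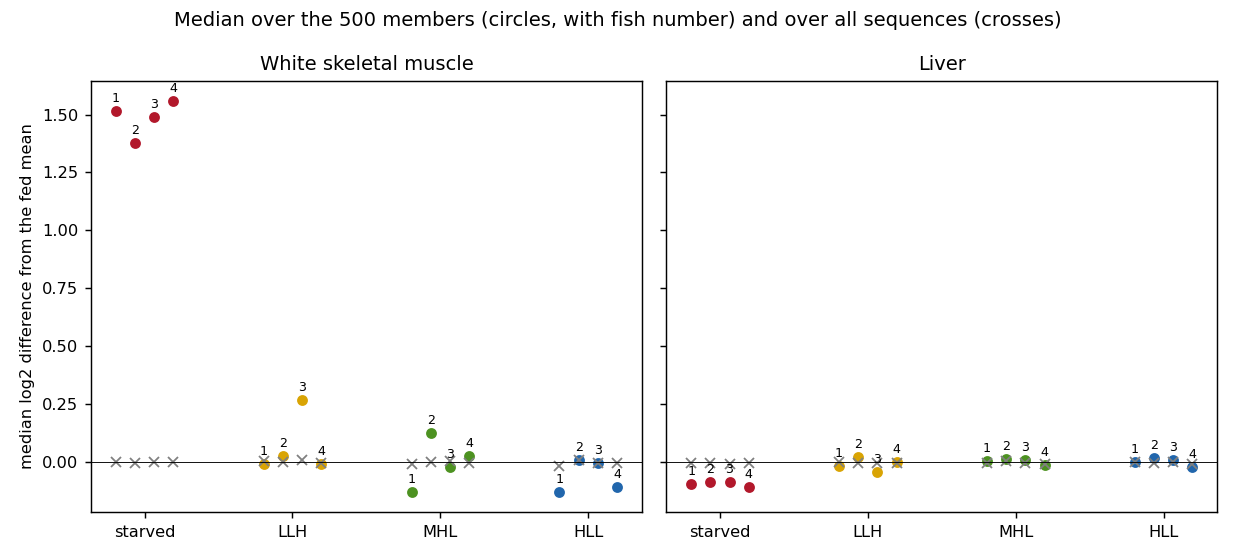
Median over the 500 members (circles with fish numbers) and over all sequences (grey crosses) of the log2 difference from the fed mean, for each fish by group, in muscle (left) and liver (right). The starved muscle fish lie between 1.38 and 1.56, LLH fish 3 stands at 0.27 above the other fed fish, and the livers of starved fish lie at -0.11 to -0.09.

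The rule pooled the 12 fed fish, so differences between the diets could be tested, apart from the condition that no fed fish reached the starved fish. The question was whether the members also varied with the macronutrient composition of the diet. In muscle, 2 members were higher in LLH than in HLL fish and none was lower, by limma's moderated test with Benjamini-Hochberg adjustment over all sequences. Over the whole array 0.167% of the sequences were called higher and 0.0674% lower in this contrast. No member was called between MHL and HLL in muscle (0.00396% of all sequences higher and 0.0119% lower) or between LLH and MHL (0% of all sequences in either direction). At an unadjusted p under 0.05, 47 members passed for MHL against HLL, 24 for LLH against MHL and 68 for LLH against HLL. These were 9.4%, 4.8% and 13.6% of the members, compared with 10.3%, 6.17% and 11.7% of all sequences. Of the 68 members, 64 were higher and 4 lower in LLH. The split by direction was not counted over all sequences, so nothing is read from it.

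For isotig06121, the 4 starved fish had 14.94 to 15.71, the LLH fish 13.44, 11.49, 12.82 and 13.33, the MHL fish 11.70, 10.75, 10.82 and 10.56, and the HLL fish 10.22, 10.25, 10.81 and 10.22. All LLH fish lay below the starved fish and above all HLL fish, while LLH fish 2 lay below MHL fish 1, and LLH exceeded HLL by 2.47 ± 0.38 (SE; limma, adjusted p = 0.025). For isotig09217, the starved fish had 10.57 to 11.41, the LLH fish 9.47, 8.78, 9.11 and 9.90, the MHL fish 7.80, 8.22, 8.14 and 7.27, and the HLL fish 7.05, 7.04, 8.40 and 7.53. Here the LLH fish lay below all starved fish and above all MHL and HLL fish, and LLH exceeded HLL by 1.88 ± 0.34 (SE; limma, adjusted p = 0.0474). For both members, the place of the LLH fish below the starved fish was asked for by the rule on processed signals. Neither call was independent of single fish: isotig06121 fell short of the threshold without LLH fish 1, 3 or 4 or HLL fish 1, 2 or 4 (highest adjusted p = 0.103), and isotig09217 passed in limma only without LLH fish 2, MHL fish 4 or HLL fish 3 and not without any of the other 13 (highest adjusted p = 0.153). Fitted as log ratios, neither passed, with limma adjusted p = 0.297 for isotig06121 and 0.283 for isotig09217, although the differences were then 2.88 and 2.23. Over 23 alternative settings, the limma adjusted p ranged from 9.82e-05 to 0.297 for isotig06121 and from 9.82e-05 to 0.283 for isotig09217. Both lowest values came from the fit without normalisation between arrays. The authors' log2 ratios and the filter on dim probes were not among these 23 settings.

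Across the members, LLH fish had slightly higher muscle values than HLL fish. The median LLH minus HLL difference was 0.12, with 417 members (83.4%) above 0, compared with 52.8% of all sequences. Leaving out LLH fish 3 lowered the share to 65.8%, compared with 50.8% of all sequences in that fit, and the median to 0.05. Without any other LLH or HLL fish the share stayed between 78.8 and 85.8%. The MHL minus HLL difference had a median of 0.04 (64.6% above 0, compared with 51.1% of all sequences). The LLH minus MHL difference had a median of 0.06 (71.6% above 0, compared with 51.7% of all sequences). LLH fish 3 is part of the LLH minus MHL share too, which was not taken without it. Starved fish exceeded each diet by nearly the same amount, with medians of 1.41 over LLH, 1.48 over MHL and 1.59 over HLL, values that share the starved fish.

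**Figure D5:**
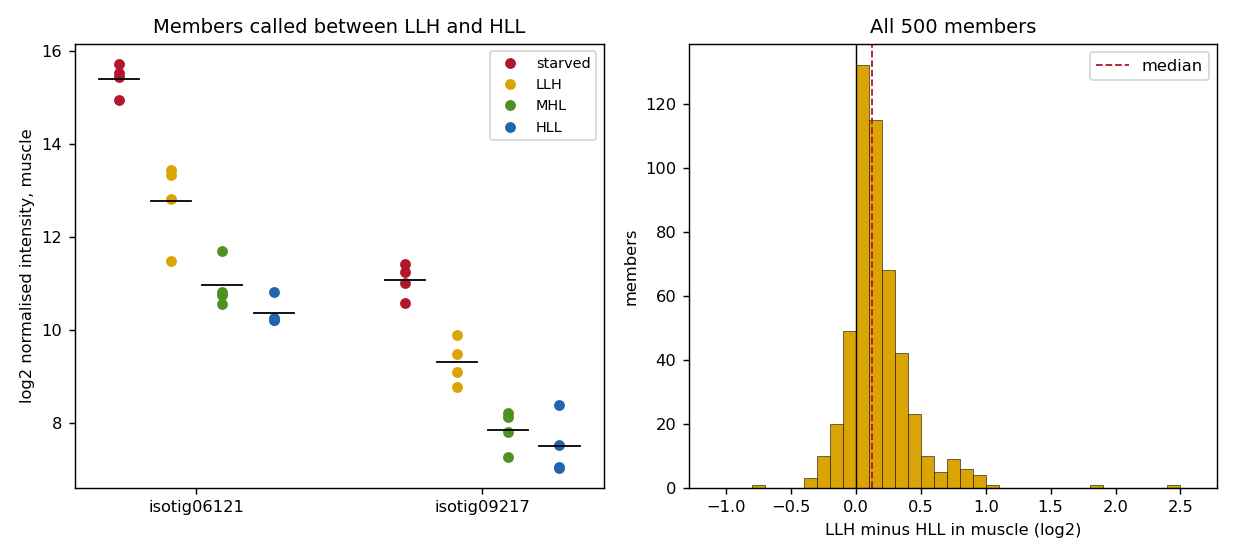
Left, log2 normalised intensity in muscle of the 2 members called between LLH and HLL (points are fish, bars are means of 4). Right, number of members by LLH minus HLL difference in muscle (log2), with the median of 0.12 dashed. Of the 500 members, 417 (83.4%) lie above 0, compared with 52.8% of all sequences. Without LLH fish 3 the shares were 65.8% and 50.8%.

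In liver, where the rule held the starved minus fed difference small, 11 members were called between diets, in 13 calls. For LLH against HLL, 2 members were higher and 7 lower in LLH (0.4% and 1.4% of the members), compared with 1.07% and 1.12% of all sequences. For MHL against HLL, 2 members were higher and 2 lower in MHL (0.4% each way), compared with 0.741% and 0.825% of all sequences. No member was called for LLH against MHL, with 0% of all sequences higher and 0.00396% lower. At an unadjusted p under 0.05, 79 members passed for LLH against HLL, 79 for MHL against HLL and 45 for LLH against MHL. These were 15.8%, 15.8% and 9% of the members, compared with 15%, 15.5% and 8.99% of all sequences. The median differences over the members were 0.01 for MHL minus HLL, -0.01 for LLH minus HLL and -0.0047 for LLH minus MHL.

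The member with the smallest adjusted p was isotig08353, which had a lower liver signal on both other diets than on HLL. Its liver values were 10.51, 10.52, 10.34 and 10.45 in LLH, 10.53, 10.697, 10.53 and 10.59 in MHL and 11.01, 10.97, 10.95 and 10.77 in HLL fish. LLH minus HLL was -0.48 ± 0.07 (SE; limma, adjusted p = 0.00629) and MHL minus HLL was -0.34 ± 0.06 (SE; limma, adjusted p = 0.0257), and HLL did not overlap with either. In muscle, isotig08353 was 1.42 higher in starved than in fed fish.

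The opposite pattern was seen for isotig10567, with liver values of 7.77, 7.87, 7.98 and 8.04 in LLH, 7.92, 7.76, 7.87 and 7.63 in MHL and 7.31, 7.58, 7.53 and 7.38 in HLL fish. LLH minus HLL was 0.46 ± 0.07 (SE; limma, adjusted p = 0.00757) and MHL minus HLL 0.35 ± 0.06 (SE; limma, adjusted p = 0.0232). The other named members were called for LLH against HLL. The liver signal of isotig08658 was 0.76 ± 0.18 (SE) higher in LLH, and that of isotig13351, IFXJFUR01ANFKD and isotig19437 lower, by -0.66 ± 0.13, -0.60 ± 0.12 and -0.49 ± 0.10 (SE), with limma adjusted p-values between 0.0252 and 0.0499 for these 4 members. The LLH against HLL calls of isotig08353 and isotig10567 held when each fish in turn was left out, whereas the other liver calls described so far did not. On processed intensities, however, these calls of isotig08353 and isotig10567 were lost (limma adjusted p = 0.359 and 0.153). Over the 23 alternative settings, each of them passed in 21. The LLH against HLL call of isotig08774, named after its values were seen, held in all 16 fits without 1 fish too. Its liver difference was -0.265 ± 0.043 (SE; limma, adjusted p = 0.0123) in the main fit. It was -0.619 with an offset of 0 and -1.058 on processed intensities (limma adjusted p = 0.0243 and 0.0192). This call passed in 22 of the 23 alternative settings. The MHL against HLL call of isotig08353 was lost without MHL fish 1 or 3 or HLL fish 1, 2 or 3, and that of isotig10567 without MHL fish 1 or 3 or HLL fish 1 or 4 (highest limma adjusted p = 0.124 and 0.103). The call of isotig13351 was lost without LLH fish 1 or 3 or HLL fish 1, 2 or 3, that of isotig19437 without LLH fish 1 or 3 or HLL fish 1 or 2, and that of IFXJFUR01ANFKD without LLH fish 1, 3 or 4 or HLL fish 1, 2 or 3. The call of isotig08658 passed in only 4 of the 16 fits, those without LLH fish 2, MHL fish 2 or starved fish 1 or 4. No liver call was left when log ratios were fitted, or when the fish with 2 labels was read as LLH. The fit of log ratios rests on 8 arrays in place of 16 channels. In it, the LLH minus HLL differences of isotig08353 and isotig10567 were -0.53 and 0.43.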

How the data were processed

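The authors hybridised muscle and liver RNA of 4 fish per group to 16 arrays in a double loop with dye swap. Scanner files deposited by the authors came from Agilent Feature Extraction 10.7, with median spot and background intensities, processed intensities (background-subtracted and dye-normalised) and log10 ratios. The authors also deposited normalised log2 ratios, listed in reverse feature order (correlation with the scanner ratios 0.947 to 0.988), with a slope of 0.793 to 0.901. The rule was applied to processed intensities. For levels and tests, R 4.3.3, limma 3.58.1 and statmod 1.5.0 were used. Median intensities were background-corrected by normexp (offset 50), 1319 control spots were left out, outlier spots were set to missing, and Loess and Aquantile were applied per tissue. No mean-intensity column was used. Spots were averaged per probe, and probes per sequence after removing each probe's mean. Channels were fitted by group and dye with array as a random block (correlation 0.159 in muscle and 0.172 in liver), and a Benjamini-Hochberg adjusted p of 0.05, taken over every sequence of the tissue, was the threshold. Since the fit weights arrays and dyes, a fitted difference can deviate from the difference of 2 means.

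The members and lists were chosen with earlier results of these data known. Named members were the 10 with the largest muscle difference, up to 8 called between diets, those next to each threshold, those with the highest and lowest liver level and the one whose probes differed most. Planned gene lists and cell type markers could not be used, because the identifiers of the members carry no gene names in the sources used here. The fit was also run on simulated data with added LLH differences, and nothing about the calls is read from that run. The number of fish, 4 per group, limits the precision. Alternatives were log ratios, no dye term, another offset, processed intensities, median centring, no normalisation between arrays, a filter on dim probes, fish number as a block, the authors' log2 ratios, other limits of the rule, and each fish left out in turn. The alternative on processed intensities used neither Loess nor Aquantile, so its values were not scaled between arrays. Leaving out fish for the share higher in LLH, and the within-array difference, were added after seeing the data.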

Additional observations from a re-analysis of the deposited data

Results flagged for a closer look

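Among 224 groups of 4 fish examined for the named sequences, 3 held a fish that stood apart from the other 3 of its group. Chance alone would mark about 1 in 20 groups. In muscle, HLL fish 4 had 11.77 for isotig05977, against 11.29 to 11.30 in the other HLL fish. In muscle, HLL fish 3 had 10.81 for isotig06121, against 10.22 to 10.25. In liver, MHL fish 2 had 8.16 for isotig09336, against 8.43 to 8.47.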

How the results depend on the processing

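The size of the set depended on the scale. The rule gave 123 sequences on the normalised intensities (89 of them members) and 235 on processed intensities centred on each channel's median (184 of them members). It gave 292 with a liver limit of 0.25, 724 with a liver limit of 1, 1038 with a muscle limit of 1.5 and 237 with a muscle limit of 2.5. When every probe of a sequence had to meet the rule by itself, 356 sequences were left, all of them members (71.2% of the members). With 1 muscle fish left out, the rule gave 459 to 588. The median difference in muscle was 1.65 with an offset of 0, 2.06 on processed intensities and 1.77 with median centring, and 1.46 to 1.54 without 1 fish. The median in liver was -0.145 with an offset of 0, -0.097 without normalisation between arrays, -0.149 over the 403 members left by a filter on dim probes, and -0.086 to -0.076 without 1 fish. The median SD within diets in muscle was 0.297 with an offset of 0, 0.604 on processed intensities, 0.30 with median centring, 0.389 without normalisation between arrays, and 0.211 to 0.231 without 1 fish. The cause of these changes was not tested.

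Of the calls between diets in muscle, no normalisation between arrays gave 28 members for MHL against HLL, 55 for LLH against HLL and 10 for LLH against MHL, in place of 0, 2 and 0. For this and the settings below, calls were not counted over all sequences. The counts are therefore not read as a result about the members. All 4 MHL muscle fish lay on the dimmer arrays, those without a starved fish. The part of array brightness in the counts without normalisation between arrays was not tested. Processed intensities gave 1 for MHL against HLL. Log ratios and the authors' log2 ratios both gave 0 for LLH against HLL. In liver, the count for MHL against HLL fell from 4 to 1 on processed intensities, where none of the 4 passed. It was 0 with an offset of 0, with median centring, with log ratios and with the authors' log2 ratios. It was also 0 with the Cy5 fish of the doubly labelled array as LLH. The 9 members of LLH against HLL became 5 with an offset of 0, 3 on processed intensities, and 0 with log ratios, with the authors' log2 ratios and with the doubly labelled fish as LLH. Without 1 fish, the muscle counts were 0 to 1 for MHL against HLL (1 without HLL fish 2), 0 to 3 for LLH against HLL (0 without LLH fish 1, 3 or 4 or HLL fish 1 or 4, and 1 without HLL fish 2, MHL fish 1, 2 or 3 or starved fish 2 or 4) and 0 to 0 for LLH against MHL. The liver counts were 0 to 12 for MHL against HLL (0 without HLL fish 1 or MHL fish 1 or 3, 1 without HLL fish 2 or 3, 2 without starved fish 2 or 3, 8 without HLL fish 4 and 12 without MHL fish 2), 4 to 16 for LLH against HLL (4 without LLH fish 1 or HLL fish 3, 5 without LLH fish 3 or HLL fish 1 or 2, and 16 without HLL fish 4) and 0 to 0 for LLH against MHL. The share of members higher in LLH than in HLL muscle was 65.8 to 85.8%.

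With fish number as a block, 1 member was called for MHL against HLL and 5 for LLH against HLL in muscle, and 0 and 7 in liver, with no count over all sequences. The labels do not say whether fish of the same number belong together. Deviations of same-numbered fish correlated between -0.202 and 0.563 in muscle and between -0.219 and 0.286 in liver. The correlation was above 0.1 in 11 of 24 pairs in muscle and in 8 of 24 in liver, and some of these pairs shared an array. These values cannot settle what the numbers mean, and no pairing was used in the main fit. Slide as a block was not run, since each tissue lay on 1 slide. No difference of a named member changed sign, but the difference moved by more than the SD among starved fish in 14 of the 24 named members on processed intensities, 10 with median centring, 5 without normalisation between arrays, 4 with an offset of 0 and 1 with a filter on dim probes. Leaving out 1 fish moved it that far only for isotig05977.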
